A study of Bos taurus with 8 samples.

Results

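Cells of the day 8 bovine blastocyst were compared with those of the day 7 blastocyst, in 127 of the 286 single cells with expression values. The members are the cells that the authors' cell table puts in the classes MB TE (37 cells) and MB ICM (51 cells), both of day 8, and EB (39 cells), of day 7. TE and ICM are the field's short forms of trophectoderm and inner cell mass, and EB and MB are printed as the table gives them. The table splits the day 8 cells by lineage but holds the day 7 cells as 1 class. Each change below thus sets 1 day 8 class against a class not split by lineage. Words such as rose or fell mean only higher or lower than the EB average. All of these cells are labelled wildtype, with no treatment, and come from pools of barcoded single cells, called libraries here, that the labels number as replicates 1 to 6. The study has 8 such libraries, and the other two, from embryos injected with a base editor, were not analysed here. MB TE had 21, 12, 3 and 1 cells in replicates 1, 2, 3 and 5, MB ICM had 24, 21, 1 and 5 cells in those same replicates, and EB had 2, 35 and 2 cells in replicates 1, 4 and 6. The EB class therefore rests on replicate 4, which holds no day 8 cell, so day and library cannot be told apart. No label names an embryo, so a library was the replicate. The p-values therefore reflect how libraries vary, part of which may be technical.

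In the blastocyst an outer epithelium, the trophectoderm, encloses a fluid-filled cavity and an inner cell mass. The trophectoderm takes on keratins, apical polarity and tight junctions, pumps fluid and later forms the fetal part of the placenta. The inner cell mass gives rise to the epiblast, which carries pluripotency factors such as SOX2 and NANOG and forms the embryo proper, and to the hypoblast, which lines the cavity and is marked by GATA6, SOX17, PDGFRA and other genes. In cattle these lineages separate slowly, and factors of one lineage are found together with those of another in early blastocysts.

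Depth per cell had a median of 198116 assigned reads in MB TE, 132481 in MB ICM and 87902 in EB, and the medians of detected genes were 8396, 7322 and 7452 in that order of classes. The lowest cells had 49665 reads in MB TE, 2633 in MB ICM and 5706 in EB. Levels are a cell's reads of a gene scaled to a common total (CPM, the field's usual scale), and were averaged per class and library wherever at least 3 such cells were present. That gave 3 averages for MB TE (replicates 1, 2 and 3), 3 for MB ICM (replicates 1, 2 and 5) and 1 for EB (replicate 4). Each cell had equal weight, so the MB ICM average of replicate 5 can rest largely on its cell with 2633 reads. In that cell KRT18 was at 1519 CPM and CRIP1 at 4937 CPM, against at most 210 and 1080 CPM in the other cells of replicate 5. The same cell had the lowest FN1 of them, at 380 CPM. The lone EB average has no spread of its own, and the test assumes that it varies like the averages of the other classes. The authors' classes were made from these cells, by steps that the labels and files do not state, so a gene that separates MB TE from MB ICM is a description of the classes and not a finding. All 48 cell barcodes occur in more than 1 library and so identify a cell only together with its library.

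The EB cells outside replicate 4 were not alike. The 2 EB cells of replicate 1, with 29295 and 37742 reads, had KRT8 at 14917 and 7975 CPM and no read of SOX2, NANOG, OTX2 or PDGFRA. A count of 3 reads over both cells corresponds to 44.8 CPM, so lower levels of those genes could not have been seen there. The 2 EB cells of replicate 6, with 111698 and 175603 reads, had KRT8 at 994 and 262 CPM and SOX2 at 71.6 and 370.2 CPM. Both pairs differed from replicate 4 in genes described here, and neither was part of the fit. They are printed beside the results as the only EB cells from other libraries. Replicate 1 is the only library with cells of all 3 classes, so its values are the only ones of day 8 against EB taken within a library.

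More genes were called in the trophectoderm class than in the inner cell mass class. In the fit by limma across 10785 genes, 118 genes (1.09%) differed between MB TE and EB at an adjusted p under 0.05, 68 of them higher in MB TE (0.631%) and 50 lower (0.464%). Between MB ICM and EB 18 genes differed (0.167%), 5 of them higher in MB ICM (0.0464%) and 13 lower (0.121%). At an unadjusted p under 0.05 the counts were 1301 and 918 genes. The called changes were of similar size, with a median size of 2.38 in MB TE and 2.52 in MB ICM. Both comparisons are taken against the same EB average, and values of the 2 classes are set side by side with no test of their likeness. The median log2 change of all tested genes was -0.18 for MB TE minus EB and -0.16 for MB ICM minus EB. With another scaling of the averages (median-ratio) these medians became -0.01 and 0.01, the MB TE calls split into 109 higher and 39 lower, and the MB ICM calls into 6 higher and 5 lower. Other settings turned the majority of MB TE calls to lower, with 49 higher and 103 lower without a filter on low values, 142 and 265 with limma-voom on the recovered reads, and 80 and 94 without replicate 1. Log2 changes below are differences of log2(mean CPM + 10) and understate the change of low genes.

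**Figure D1:**
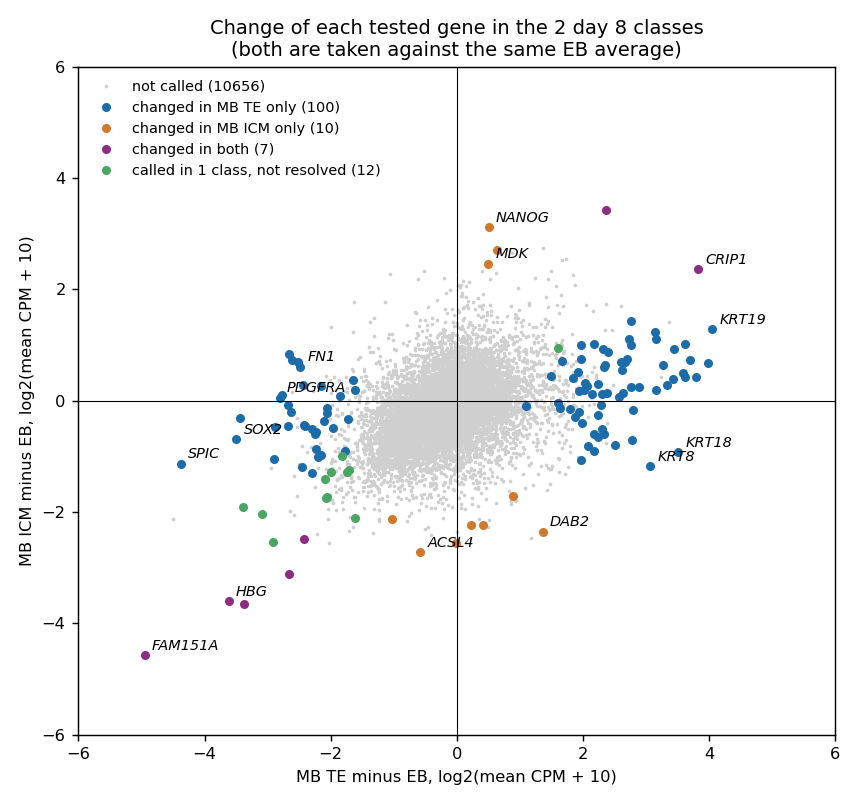
Log2 change of each of the 10785 tested genes, with MB TE minus EB on the horizontal axis and MB ICM minus EB on the vertical axis, on the log2(mean CPM + 10) scale. Colours mark the genes called in both day 8 classes (7), in MB TE only (100), in MB ICM only (10) or in 1 class without a resolved difference between the classes (12). Most called genes lie far to the left or right, near the horizontal line. Both axes share the EB average, so a slope in the cloud of points is built in.

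Sorted by class, 7 genes changed in both day 8 classes in the same direction (0.0649% of those tested; 2 higher, 0.0185%), 100 in MB TE only (0.927%) and 10 in MB ICM only (0.0927%, with 3 higher, 0.0278%). A gene counted as changed in 1 class only if it was called in that class, was not called in the other, and also differed between MB TE and MB ICM with the same sign. Between MB TE and MB ICM 1365 genes differed (12.7%). The other 12 called genes (0.111%) could not be placed, since MB TE and MB ICM did not differ past the threshold. None was called in opposite directions. Leaving out replicate 2 gave 34 calls for MB TE and 6 for MB ICM, leaving out replicate 3 gave 46 and 9, and leaving out replicate 5 gave 128 and 3. Leaving out replicate 1 gave 174 and 28.

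Beyond replicate 4, the EB cells of replicate 6 lay below all 3 MB TE averages for all 68 genes called higher in MB TE, as they did for 35% of all tested genes. They lay above all 3 for 42 of the 50 genes called lower, against 35.3% of all genes. The called genes were picked with these same day 8 averages, so a share above that of all genes is in part built in. In replicate 1 the EB cells lay below all MB TE averages for 54 of the 68 genes (56.5% of all genes) and above them for 17 of the 50 (20.7%). For MB ICM, the EB cells of replicate 6 lay below all 3 averages for the 5 genes called higher (34.5% of all genes). They lay above all 3 for 7 of the 13 genes called lower (33.2%). In replicate 1 the EB cells lay below all MB ICM averages for 4 of the 5 genes (59.1%) and above them for 6 of the 13 (21.3%). Within replicate 1 itself, EB was below MB TE for 56 of the 68 genes (73.4% of all genes) and above it for 17 of the 50 (25%). The background shares are high in those cells because many genes have no read there. The EB cells of replicate 1 had no read of 18 of the 68 genes and 27 of the 50. For a gene with no read there, a change within replicate 1 is given as a bound, with EB set at 44.8 CPM, and none is given where the day 8 level also lies under 44.8 CPM. Many changes within replicate 1 were small or of the other sign.

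The keratins KRT8 and KRT18, partners in the intermediate filaments of simple epithelia, were raised strongly in MB TE. KRT8 had 15477, 22754 and 27017 CPM in MB TE (replicates 1, 2 and 3), 1179.8, 1138 and 771 CPM in MB ICM (replicates 1, 2 and 5), and 2452 CPM in EB (replicate 4). The EB average lay between the day 8 classes, and no class overlapped another. The log2 change was 3.06 for MB TE (SE 0.39, adjusted p = 0.000403) and -1.17 for MB ICM (SE 0.39, adjusted p = 0.387). In EB cells of other libraries KRT8 was at 11446 CPM in replicate 1 and 628 CPM in replicate 6, and within replicate 1 MB TE exceeded EB by only 0.43 on the log2 scale. KRT18 had 11098, 14679 and 26199 CPM in MB TE, 678, 829 and 423 CPM in MB ICM and 1289 CPM in EB. Its MB TE average was higher than EB by 3.51 (SE 0.56, adjusted p = 0.00437), and within replicate 1 by 1.58.

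KRT19, a smaller keratin of simple epithelia, had the largest rise among the genes named for MB TE only. It had 1100.0, 1768 and 2762 CPM in MB TE, 186, 275 and 238 CPM in MB ICM and 96.8 CPM in EB, so the EB average lay below both day 8 classes. The change was 4.04 for MB TE (SE 0.50, adjusted p = 0.000403), but within replicate 1, where EB had 1236 CPM, it was -0.17. PLAC8, a gene used as a mark of trophectoderm in cattle, had 1578, 2048 and 2280.4 CPM in MB TE, 189, 253 and 295 CPM in MB ICM and 292 CPM in EB. MB TE stood 2.79 higher than EB (SE 0.40, adjusted p = 0.00108), and 1.07 higher within replicate 1, and MB ICM overlapped the EB level.

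The trophectoderm transcription factors GATA3, CDX2 and GATA2 were called in neither day 8 class, and of these GATA3 was in EB near its MB TE level. GATA3 had 476, 427 and 642 CPM in MB TE, 179, 116 and 138 CPM in MB ICM and 410.1 CPM in EB, with 384 and 339.7 CPM in the EB cells of replicates 1 and 6. All 3 EB values lay below the lowest MB TE average, and above all MB ICM averages, but the 2 cells of each pair were not alike. GATA3 was at 0 and 768 CPM in the EB cells of replicate 1 and at 161 and 518 CPM in those of replicate 6. Its changes were 0.31 for MB TE (SE 0.38, adjusted p = 0.827) and -1.43 for MB ICM (SE 0.38, adjusted p = 0.21), neither past the threshold. CDX2 had 72.9, 54.4 and 62.9 CPM in MB TE, 4.31, 2.9 and 1.15 CPM in MB ICM and 32.0 CPM in EB. The EB cells of the other replicates fell on either side, with 178 CPM in replicate 1 and 2.85 CPM in replicate 6. GATA2 had 71.2, 43.9 and 116 CPM in MB TE, 1.57, 4.17 and 0 CPM in MB ICM and 25.3 CPM in EB. For CDX2 and GATA2 the changes were 0.63 and 1.07 in MB TE (adjusted p = 0.682 and 0.452) and -1.84 and -1.58 in MB ICM (adjusted p = 0.225 and 0.44), on the log2 scale. Under other settings GATA2 in MB TE and GATA3 in MB ICM were each called once, at an adjusted p of 0.0456 and 0.0335 by limma, while the highest adjusted p over the settings were 0.777 and 0.528.

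**Figure D2:**
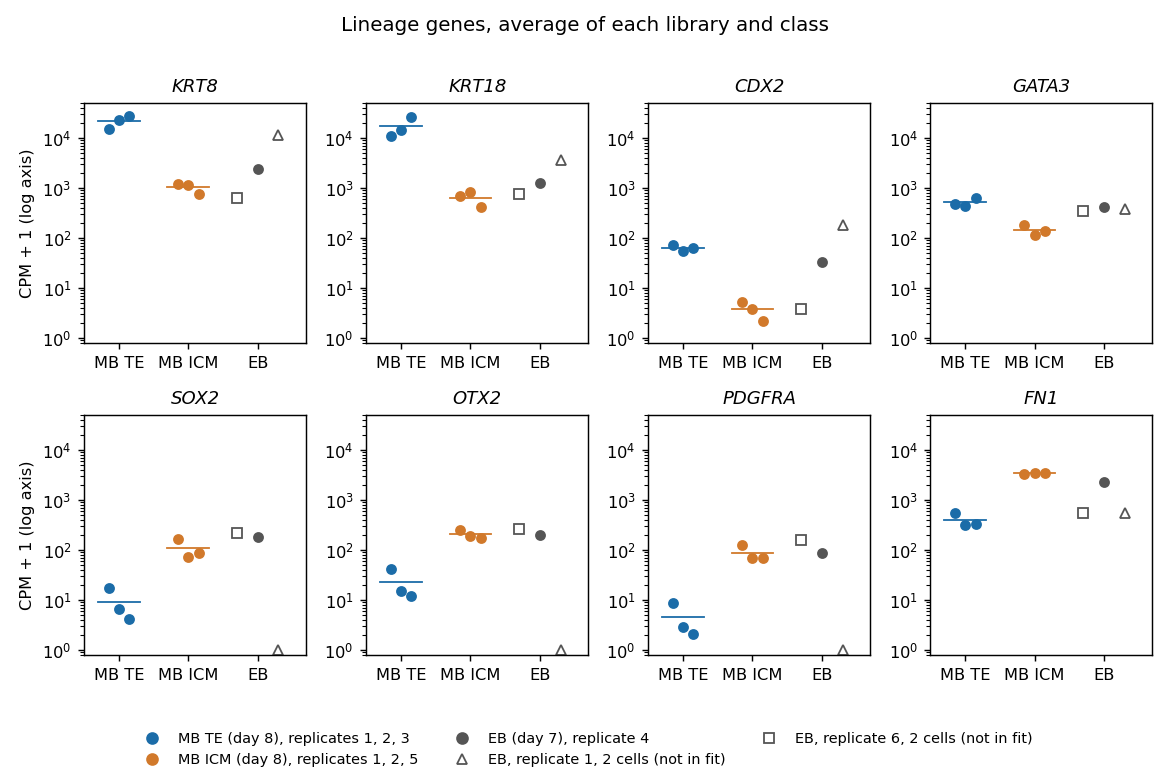
CPM + 1 on a log axis for trophectoderm genes (upper row) and genes of the inner cell mass (lower row). Filled points are averages of a library and class, bars are means of the day 8 averages, and open symbols are the 2 EB cells each of replicates 1 and 6. KRT8 and KRT18 in MB TE lie above every EB symbol, while SOX2, OTX2 and PDGFRA in EB of replicates 4 and 6 lie within or above the range of MB ICM and the EB cells of replicate 1 have no read.

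Of the trophectoderm list as a whole, 29 of its 34 members were tested. In MB TE 7 were called higher and none lower (18 differed in either direction at an unadjusted p under 0.05), and the median log2 change was 1.07, against -0.18 for all genes. In MB ICM none was called higher and 2 were called lower, DAB2 and EZR, and the median was -0.40, against -0.16 for all genes. Over all tested genes 0.631% were called higher and 0.464% lower in MB TE, and 0.0464% and 0.121% in MB ICM. At an unadjusted p under 0.05 by limma, 1301 of the 10785 genes differed in MB TE and 918 in MB ICM. These values are also the background for the counts of the lists below. The trophectoderm list was written with earlier results of these data known and the classes were made from these cells, so its direction is not independent evidence.

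Single EB cells of replicate 4 spread widely in KRT8, mostly within the range of the MB ICM cells. KRT8 ran between 4622 and 46677 CPM in the 37 MB TE cells (median 17915), between 344 and 5067 CPM in the 51 MB ICM cells (median 777) and between 335 and 8557 CPM in the 35 EB cells (median 2135). None of the EB cells reached the MB TE median, 32 of 35 lay below the lowest MB TE cell, and 25 lay above the MB ICM median. Of the 35 EB cells 2 lay above the highest MB ICM cell and 1 below the lowest. For FN1, a matrix protein made by hypoblast, the medians were 383 CPM in MB TE, 3200.2 CPM in MB ICM and 2123 CPM in EB, and 27 of the 35 EB cells lay above the highest MB TE cell.

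Within those 35 cells, which share a library, KRT8 and KRT18 had a Spearman rank correlation of 0.82, and KRT8 had one of 0.56 with CDX2 and 0.52 with GATA3. KRT8 was inversely related to FN1 (-0.65) and PDGFRA (-0.64), and less so to SOX2 (-0.38). FN1 and PDGFRA went together (0.71). KRT8 was nearly unrelated to the total reads of a cell (0.06). In the day 8 classes several of these relations had the same sign, as KRT8 had correlations of 0.69 (MB TE) and 0.88 (MB ICM) with KRT18, -0.39 and -0.37 with FN1, -0.49 and -0.30 with PDGFRA and -0.21 and -0.08 with SOX2. With CDX2 they were -0.14 and -0.00, and with GATA3 -0.29 and 0.35. FN1 and PDGFRA had 0.22 and 0.28, and KRT8 and total reads 0.02 and -0.42. These are descriptions over cells and were not tested.

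**Figure D3:**
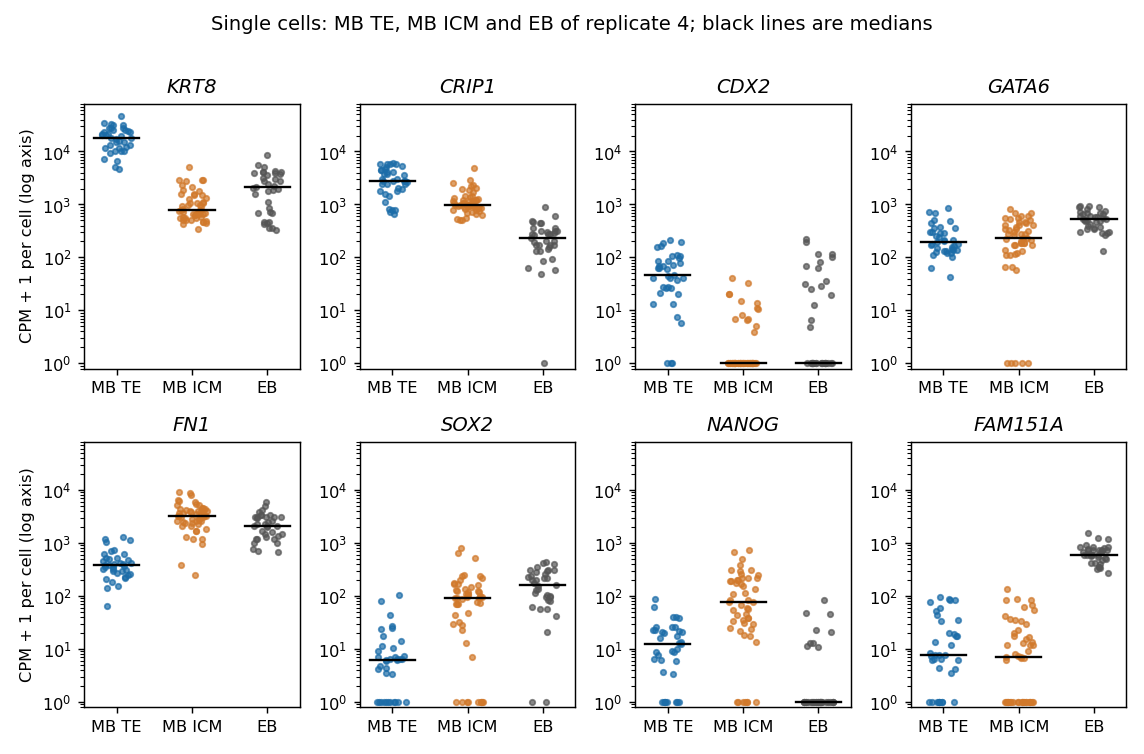
CPM + 1 per cell on a log axis for 8 genes in the 37 MB TE cells, the 51 MB ICM cells and the 35 EB cells of replicate 4, with medians as black lines. For KRT8 32 of the 35 EB cells lie below the lowest MB TE cell and 25 above the MB ICM median, for CRIP1 33 lie below the lowest MB ICM cell, and for FAM151A all lie above every day 8 cell.

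Of 34 genes listed for actin and calcium binding 32 were tested, and 7 were called higher in MB TE with none lower, while 25 did not pass and no member was called in MB ICM. Over all tested genes 0.631% were called higher in MB TE. The list's median log2 change was 0.91 in MB TE and -0.10 in MB ICM, against -0.18 and -0.16 for all genes. ACTB, the cytoplasmic beta actin, had 17945, 23348 and 24681 CPM in MB TE, 9838, 10739.5 and 11019.8 CPM in MB ICM and 8268 CPM in EB, a change of 1.49 for MB TE (SE 0.26, adjusted p = 0.0055). TAGLN2, an actin-binding transgelin, had 1749, 2191 and 2528 CPM in MB TE, 691, 643 and 551 CPM in MB ICM and 492 CPM in EB, a change of 2.03 for MB TE (SE 0.31, adjusted p = 0.00198). S100A16, a calcium-binding protein, had 1575, 2027 and 1654 CPM in MB TE, 338, 252 and 108 CPM in MB ICM and 319.6 CPM in EB.

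For ACTB and S100A16 the call was lost without replicate 2 (changes of 1.45 and 2.20) and without replicate 3 (1.42 and 2.32), although the changes hardly moved. In the EB cells of replicate 1 ACTB was at 15667 CPM, TAGLN2 at 1597 CPM and S100A16 at 1436 CPM. Within replicate 1 the changes of MB TE were therefore 0.20, 0.13 and 0.13, while in replicate 6 the EB cells had 7789, 507 and 343 CPM of the same 3 genes, near the EB average of replicate 4.

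PLS1, a plastin that bundles actin in microvilli, had 393, 688 and 991 CPM in MB TE, 33.5, 41.1 and 90.4 CPM in MB ICM and 34.0 CPM in EB, a change of 3.99 (SE 0.65, adjusted p = 0.00437). ARPC1B, a subunit of the actin-branching Arp2/3 complex, had 118, 314 and 379.7 CPM in MB TE, 23.0, 25.6 and 2.69 CPM in MB ICM and 9.12 CPM in EB, a change of 3.62 (SE 0.63, adjusted p = 0.00502). Without replicate 3 its change of 3.29 was not called. PRSS8, a serine protease anchored in epithelial membranes, had 192, 348 and 333 CPM in MB TE, 8.59, 26.9 and 17.0 CPM in MB ICM and 10.3 CPM in EB, a change of 3.79 (SE 0.49, adjusted p = 0.000403). In all 3 genes MB TE stood apart and the EB level lay within the range of MB ICM. Within replicate 1 the changes of MB TE were 2.40 for PLS1, -0.86 for ARPC1B and 1.82 for PRSS8.

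DSC2, a cadherin of desmosomes, was the called member among 29 tested genes of epithelial junctions. It had 135, 287 and 432 CPM in MB TE, 14.4, 43.8 and 9.69 CPM in MB ICM and 14.2 CPM in EB, with no read in the EB cells of replicates 1 and 6. Its change was 3.42 in MB TE (SE 0.58, adjusted p = 0.00437) and at least 1.41 within replicate 1. FXYD4, which modulates the sodium and potassium pump, was called among 10 tested genes of fluid transport. It had 565, 983 and 1256 CPM in MB TE, 61.7, 133 and 286 CPM in MB ICM and 91.6 CPM in EB, a change of 3.26 (SE 0.55, adjusted p = 0.00437). FXYD4 changed by 1.49 within replicate 1, and without replicate 3 the change was 3.12 and no longer called.

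Of 29 tested genes of sterol and fatty acid metabolism 1, FABP5, was called higher in MB TE and 1, ACSL4, lower in MB ICM, with median changes of 0.67 and 0.22. PTGS2, the inducible enzyme of prostaglandin synthesis, had 563, 1018 and 654 CPM in MB TE, 63.7, 102 and 222 CPM in MB ICM and 57.9 CPM in EB, a change of 3.61 (SE 0.59, adjusted p = 0.00437). A single cell gave 39.6% of the EB level, and the EB cells of replicate 1 had 529 CPM, so that within replicate 1 the change was 0.09. That value is the mean of 1 cell at 1058 CPM and 1 with no read. In MB ICM of replicate 5, the cell with 2633 reads had 760 CPM of PTGS2 and the others at most 121 CPM. FADS3, of the fatty acid desaturase family, had 314, 476 and 886 CPM in MB TE, 47.7, 37.0 and 92.6 CPM in MB ICM and 30.5 CPM in EB, a change of 3.70 (SE 0.51, adjusted p = 0.000745) and 1.60 within replicate 1. FABP5, a fatty acid binding protein, had 186, 405 and 209 CPM in MB TE, 70.5, 38.2 and 11.7 CPM in MB ICM and 12.8 CPM in EB. Its change was 3.44 (SE 0.59, adjusted p = 0.00437), and 3.54 without replicate 3, where it was not called. FABP5 had a change of 1.39 within replicate 1. SLC10A1, known as the bile acid carrier of liver, had 77.1, 238 and 169 CPM in MB TE, 2.36, 13.4 and 6.04 CPM in MB ICM and 2.96 CPM in EB, a change of 3.59 (SE 0.60, adjusted p = 0.00437) and of at least 0.67 within replicate 1.

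Of 25 tested genes of endocytosis and the lysosome 2 were called higher in MB TE, and 1, DAB2, was called lower in MB ICM. CTSZ, a lysosomal protease, had 120.4, 157 and 316 CPM in MB TE, 28.0, 42.7 and 79.8 CPM in MB ICM and 18.3 CPM in EB, a change of 2.76 (SE 0.50, adjusted p = 0.00677). ATP6V0C, a subunit of the proton pump of lysosomes, had 1686, 1673 and 968 CPM in MB TE, 377, 335 and 255 CPM in MB ICM and 359 CPM in EB, a change of 1.94 (SE 0.39, adjusted p = 0.0133). Neither rise was seen within replicate 1, where the changes were -1.10 and -0.05. CTSZ was not called without replicate 3 (2.44), nor ATP6V0C without replicate 2 (1.81).

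Among 11 tested ruminant placental genes 1 was called, PAG2, a pregnancy-associated glycoprotein of the placenta. It had 116, 300.3 and 179.9 CPM in MB TE, 12.9, 19.4 and 4.12 CPM in MB ICM and 9.85 CPM in EB, a change of 3.34 (SE 0.62, adjusted p = 0.00745). PAG2 belongs to a family of related genes, and its reads may be shared with them, which was not tested. Without replicate 2 its change was 2.97 and not called, and the EB cells of replicate 1 had no read of it. The list's median change was 1.36 in MB TE and 0.28 in MB ICM.

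DNMT3A, which sets new DNA methylation, was the called member among 28 tested genes of DNA methylation and chromatin. It had 1104, 985 and 2262 CPM in MB TE, 163, 227 and 275 CPM in MB ICM and 289 CPM in EB, a change of 2.24 (SE 0.47, adjusted p = 0.0173). The list as a whole leaned the other way, with a median of -0.58 in MB TE and -0.46 in MB ICM and 3 of the 28 members above 0 in MB TE. Within replicate 1, where EB had 1087 CPM, the change of DNMT3A was 0.02. HSPA5, a chaperone of the endoplasmic reticulum, had 1011, 1077 and 844 CPM in MB TE, 482, 592 and 450.4 CPM in MB ICM and 296 CPM in EB. Its change was 1.67 (SE 0.36, adjusted p = 0.022) and 1.45 within replicate 1. Leaving out replicate 1 or 2 ended that call, at changes of 1.64 and 1.60. PRDX5, a peroxiredoxin, was called in MB TE at 1.61 (SE 0.38, adjusted p = 0.0402) with MB ICM at 0.95, and its difference between the day 8 classes was not resolved. PRDX5 lost its call without replicate 2, 3, 5 or 6 (changes of 1.60, 1.37, 1.59 and 1.59).

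The inner cell mass genes SOX2, OTX2 and SPIC were at or above their MB ICM level in EB and low in MB TE. SOX2, a pluripotency factor, had 16.2, 5.69 and 3.11 CPM in MB TE, 167, 72.4 and 84.5 CPM in MB ICM and 179.8 CPM in EB. The EB average lay above every day 8 average, and the EB cells of replicate 6 had 221 CPM. Its change was -3.50 in MB TE (SE 0.70, adjusted p = 0.0159) and -0.69 in MB ICM (SE 0.70, adjusted p = 0.859). Without replicate 2 the MB TE change was -3.48 and not called. OTX2, a homeobox factor of the epiblast, had 39.9, 14.2 and 11.1 CPM in MB TE, 249, 194 and 177 CPM in MB ICM and 198 CPM in EB, and fell by 2.78 in MB TE (SE 0.57, adjusted p = 0.0159). Without replicate 2 the change of OTX2 was -2.65 and not called. Within replicate 1 MB ICM was higher than EB by at least 1.69 for SOX2 and 2.24 for OTX2, while MB TE gave no direction for either, at 16.2 and 39.9 CPM against no read in EB.

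SPIC, an ETS-family factor, showed the largest fall named for MB TE only. It had 49.8, 12.7 and 3.11 CPM in MB TE, 391, 155 and 199.9 CPM in MB ICM and 573 CPM in EB, with 511 CPM in the EB cells of replicate 6. The change was -4.38 in MB TE (SE 0.77, adjusted p = 0.00738) and -1.13 in MB ICM (SE 0.77, adjusted p = 0.741), but 0.16 and 2.91 within replicate 1, where EB had 43.6 CPM. All 35 EB cells lay above the MB TE median of SPIC, and 20 lay above the highest MB TE cell.

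POU5F1, a pluripotency factor that cattle trophectoderm keeps for some time, differed little. It had 139.7, 106 and 96.0 CPM in MB TE, 174, 224 and 327 CPM in MB ICM and 139 CPM in EB, and 90.9 and 129 CPM in the EB cells of replicates 1 and 6. The changes were -0.27 in MB TE and 0.72 in MB ICM (SE 0.45 each, adjusted p = 0.893 and 0.71). In MB ICM of replicate 5, the cell with 2633 reads had 1139 CPM of POU5F1 and the others at most 194 CPM. Of 24 tested epiblast genes SOX2 and OTX2 were called lower in MB TE and NANOG higher in MB ICM.

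The hypoblast genes PDGFRA, FN1 and FLRT3 were lower in MB TE than in EB of replicate 4. PDGFRA, a receptor of platelet-derived growth factor, had 7.83, 1.89 and 1.07 CPM in MB TE, 123, 69.5 and 69.7 CPM in MB ICM and 86.8 CPM in EB, with 156 CPM in the EB cells of replicate 6. It fell by 2.81 in MB TE (SE 0.48, adjusted p = 0.00442), while the change in MB ICM was 0.05, and at least 1.29 within replicate 1. FN1 (fibronectin) had 559.7, 322 and 327 CPM in MB TE, 3318, 3479.5 and 3516 CPM in MB ICM and 2329 CPM in EB. It fell by 2.48 in MB TE (SE 0.38, adjusted p = 0.00198), with a change of 0.61 in MB ICM, but the EB cells of replicates 1 and 6 had 542 and 541 CPM, near the MB TE level. FN1 had changes of 0.05 in MB TE and 2.59 in MB ICM within replicate 1. FLRT3, a membrane protein with leucine-rich repeats, had 6.85, 2.14 and 2.15 CPM in MB TE, 121, 184 and 117 CPM in MB ICM and 73.9 CPM in EB, a change of -2.66 in MB TE (SE 0.54, adjusted p = 0.0156). Its MB TE change within replicate 1 was -0.68. The EB cells of replicate 6 had no read of FLRT3, and without replicate 2 its change of -2.60 was not called.

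Of the other hypoblast genes, none was called. GATA6, an early factor of the hypoblast, had 329, 151 and 277 CPM in MB TE, 311, 274 and 145 CPM in MB ICM and 540.2 CPM in EB, with 491 CPM in the EB cells of replicate 6 and 225 CPM in those of replicate 1. The EB average lay above all 6 day 8 averages, and MB TE and MB ICM overlapped each other. The changes were -1.14 in MB TE and -1.13 in MB ICM (SE 0.50 each, adjusted p = 0.348 and 0.541). HNF4A, an endoderm factor, had 9.84, 10.3 and 13.2 CPM in MB TE, 109, 206 and 134 CPM in MB ICM and 36.7 CPM in EB, so the EB average lay between the classes. The EB cells of replicate 6 had 11.4 CPM, within the MB TE range, and those of replicate 1 had no read. Among the 35 EB cells of replicate 4 the median was 11.8 CPM. The changes of HNF4A were -1.14 in MB TE (SE 0.44, adjusted p = 0.285) and 1.76 in MB ICM (SE 0.44, adjusted p = 0.171). Under 2 other settings HNF4A was called in MB ICM, and its change there lay between 1.19 and 2.92 over the settings. GATA4 stayed at or below 8.79 CPM in every average and at 0.813 CPM in EB, and SOX17, at or below 1.44 CPM, was not tested. Over the 23 tested hypoblast genes the median change was -0.76 in MB TE and 0.16 in MB ICM, with 3 called lower in MB TE and none in MB ICM.

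In all 35 genes fell in MB TE only (0.325%), and those not yet described include AKAP12, SLC1A3, SLC6A8 and FAM43B. Of 13 tested genes of amino acid transport 1, SLC1A3, was called lower in MB TE and 1, SLC1A1, lower in MB ICM. AKAP12, which anchors protein kinase A, had 158, 166 and 60.1 CPM in MB TE, 838, 673 and 497 CPM in MB ICM and 898 CPM in EB, a change of -2.88 (SE 0.55, adjusted p = 0.00977). The EB cells of replicate 6 had 65.9 CPM of AKAP12 and those of replicate 1 had no read, so neither pair showed the level of replicate 4. Within replicate 1 AKAP12 was thus higher than EB, by at least 1.61 in MB TE and 3.95 in MB ICM. SLC1A3, a glutamate transporter, had 14.5, 17.2 and 9.08 CPM in MB TE, 116, 128 and 61.6 CPM in MB ICM and 146 CPM in EB, a change of -2.68 (SE 0.50, adjusted p = 0.00745). Within replicate 1 the change of SLC1A3 was -1.23, and it was not called without replicate 3 (-2.52).

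SLC6A8, the creatine transporter, had 85.4, 8.44 and 16.3 CPM in MB TE, 139, 115 and 96.7 CPM in MB ICM and 249.8 CPM in EB, a change of -2.90 (SE 0.67, adjusted p = 0.0376). That call was lost without replicate 2, 3, 5 or 6 (changes of -2.45, -2.66, -2.85 and -2.90), and within replicate 1 the change was 0.94. FAM43B fell by 3.43 in MB TE (SE 0.65, adjusted p = 0.00901), and was not called without replicate 2 (-3.46) or 3 (-3.11). SPRED2, an inhibitor of ERK signalling, was lower in MB TE, with a change of -2.08 (SE 0.45, adjusted p = 0.0219) and had a change of -1.74 in MB ICM (adjusted p = 0.19), so it was not placed in either set. Without replicate 2 or 3 the change of SPRED2 was -1.99 and -1.88 and not called.

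NANOG, a factor of the epiblast, rose in MB ICM only. It had 11.8, 19.6 and 13.5 CPM in MB TE, 129, 129.5 and 203 CPM in MB ICM and 7.42 CPM in EB, and no read in the EB cells of replicates 1 and 6. The change was 3.11 in MB ICM (SE 0.51, adjusted p = 0.00758), 0.50 in MB TE (SE 0.51, adjusted p = 0.771) and at least 1.35 for MB ICM within replicate 1. SOX2 was thus at its MB ICM level in the EB average and NANOG was not. A single cell gave 32.0% of the EB level of NANOG, and without replicate 2 the change was 3.19 and not called.

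MDK, the growth factor midkine, had 17.0, 17.1 and 9.93 CPM in MB TE, 78.9, 83.4 and 108 CPM in MB ICM and 7.79 CPM in EB, a change of 2.46 in MB ICM (SE 0.44, adjusted p = 0.0193) and at least 0.70 within replicate 1. The other gene in this set was LOC100139916, with 7.74, 6.83 and 7.9 CPM in MB TE, 41.4, 77.5 and 94.7 CPM in MB ICM and 2.05 CPM in EB (change 2.71, SE 0.49, adjusted p = 0.0205). Both lost the call without replicate 2 (2.49 and 2.60) or 5 (2.34 and 2.56), and LOC100139916 also without replicate 3 (2.74).

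The 7 genes that fell in MB ICM only were DAB2, EZR, ACSL4, CLIP1, ARHGAP18, SLC1A1 and AGPAT5. DAB2, an endocytic adaptor, had 1669, 1696 and 1578 CPM in MB TE, 190.1, 108 and 68.7 CPM in MB ICM and 640.5 CPM in EB, so the EB average lay between the classes. The EB cells of replicates 1 and 6 had 1829 and 320 CPM. The change of DAB2 was -2.35 in MB ICM (SE 0.44, adjusted p = 0.03), 1.36 in MB TE (SE 0.44, adjusted p = 0.177) and -3.20 for MB ICM within replicate 1. EZR, which links actin to the apical membrane, had 4154, 2836 and 4843 CPM in MB TE, 846, 569.7 and 447 CPM in MB ICM and 1973 CPM in EB, a change of -1.71 in MB ICM (SE 0.35, adjusted p = 0.0449). At 461 CPM, the EB cells of replicate 6 lay within the MB ICM range of EZR.

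ACSL4, which activates arachidonic acid, had 119, 238 and 192 CPM in MB TE, 36.7, 58.0 and 9.97 CPM in MB ICM and 260.3 CPM in EB, with 199 and 253 CPM in the EB cells of replicates 1 and 6. All 3 EB values of ACSL4 lay above every MB ICM average, as they did for DAB2, and its change was -2.72 (SE 0.52, adjusted p = 0.0304). CLIP1, a protein of microtubule ends, changed by -2.56 (SE 0.49, adjusted p = 0.0302) and ARHGAP18, a GTPase-activating protein, by -2.24 (SE 0.44, adjusted p = 0.0392). SLC1A1, a glutamate transporter, had 74.7, 41.9 and 55.4 CPM in MB TE, 2.79, 1.83 and 0 CPM in MB ICM and 45.8 CPM in EB (change -2.24, SE 0.44, adjusted p = 0.0372). AGPAT5, a lipid acyltransferase, changed by -2.13 (SE 0.43, adjusted p = 0.0449). In the EB cells of replicate 6 CLIP1 was at 56.1 CPM and AGPAT5 at 103.3 CPM. Both lay within the MB ICM range, between 52.1 and 134.8 CPM for CLIP1 and between 43.6 and 104.0 CPM for AGPAT5. ARHGAP18, at 74.5 CPM, and SLC1A1, at 5.69 CPM, lay above all MB ICM averages there. A count of 3 reads over those cells corresponds to 10.4 CPM.

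Within replicate 1 the changes of MB ICM were -2.73 for EZR, -2.16 for ACSL4, -2.01 for CLIP1, -1.56 for ARHGAP18 and -5.31 for SLC1A1. AGPAT5 went the other way there, at least 0.54 higher in MB ICM than in EB, whose cells had no read. None of these 7 falls was called with median-ratio scaling. Without replicate 5 none was called either, and the changes were -2.01 for DAB2, -1.50 for EZR, -2.22 for ACSL4, -2.22 for CLIP1, -2.00 for ARHGAP18, -2.15 for SLC1A1 and -1.87 for AGPAT5. Without replicate 3 none was called, with changes between -2.73 (ACSL4) and -1.74 (EZR), and without replicate 2 only ACSL4 of the 7 was, the other changes lying between -2.51 (CLIP1) and -1.67 (EZR). Leaving out replicate 6 ended the calls of EZR (-1.68), ARHGAP18 (-2.27), SLC1A1 (-2.26) and AGPAT5 (-2.17), and leaving out replicate 1 those of ARHGAP18 (-2.28) and AGPAT5 (-2.13). FAM131B was also called lower in MB ICM (-2.10, adjusted p = 0.0498), but 92.1% of its EB level came from a single cell, and it was not called without replicate 1, 2, 5 or 6 (-2.08, -2.11, -2.05 and -2.10).

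**Figure D4:**
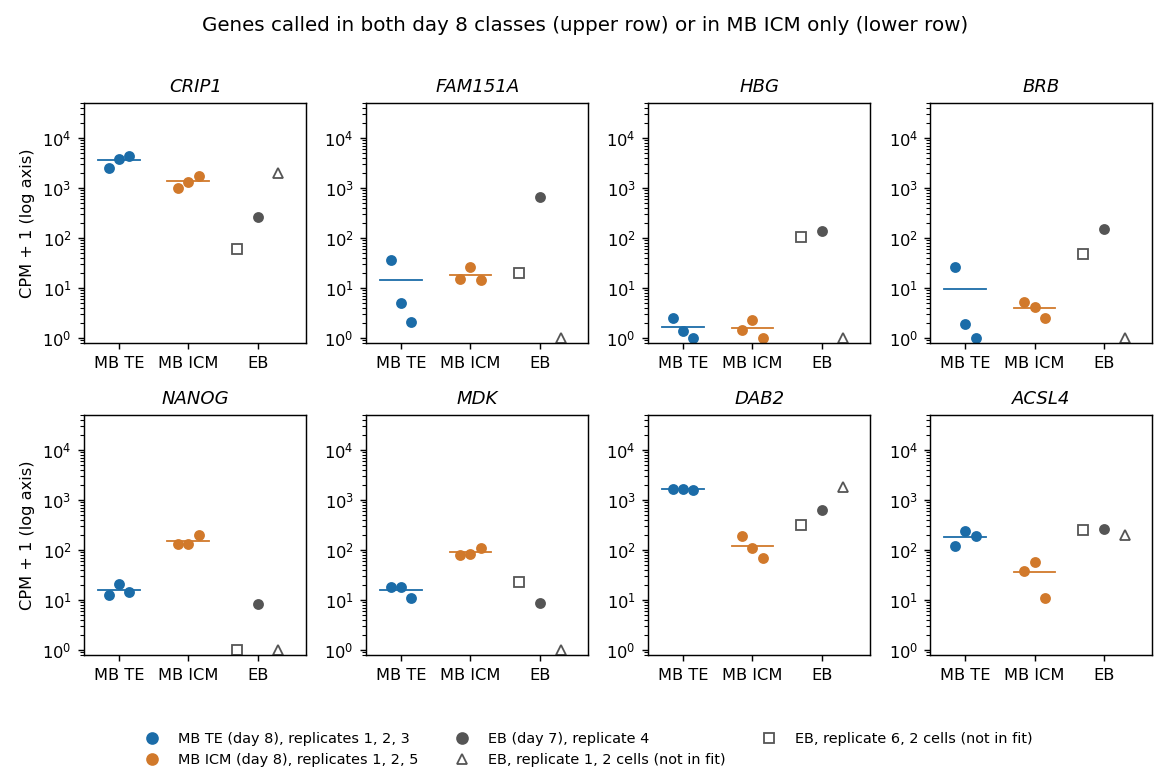
CPM + 1 on a log axis for genes called in both day 8 classes (upper row) and in MB ICM only (lower row), with the same symbols as the plot of lineage genes. FAM151A in EB of replicate 4 stands at 659.8 CPM with every day 8 average at or below 34.9 CPM, and CRIP1 in the EB cells of replicate 1 lies at the day 8 level.

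CRIP1, a small LIM-domain protein, rose in both day 8 classes. It had 2508, 3883 and 4377 CPM in MB TE, 1010.3, 1339.7 and 1756 CPM in MB ICM and 260.1 CPM in EB, with 59.0 CPM in the EB cells of replicate 6. The change was 3.83 in MB TE (SE 0.41, adjusted p = 7.91e-05) and 2.36 in MB ICM (SE 0.41, adjusted p = 0.0151). Among single cells, 34 of the 35 EB cells lay below the lowest MB TE cell and 33 below the lowest MB ICM cell. In replicate 1 the EB cells had 2004 CPM, and within that library the changes were 0.32 in MB TE and -0.98 in MB ICM. The MB ICM call was lost without replicate 2, 3 or 5, at changes of 2.34, 2.38 and 2.25.

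LOC112445127 had 43.7, 98.4 and 56.2 CPM in MB TE, 117, 112 and 301 CPM in MB ICM and 5.48 CPM in EB, and no read in the EB cells of the other replicates. Its change was 2.36 in MB TE (SE 0.53, adjusted p = 0.0266) and 3.43 in MB ICM (SE 0.53, adjusted p = 0.00448), and within replicate 1 the change was at least 1.22 in MB ICM, while MB TE lay under 44.8 CPM there. Without replicate 2 or 3 the MB TE change was 2.11 and 2.48 and not called.

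FAM151A was the gene with the largest fall in both classes. It had 34.9, 3.97 and 1.07 CPM in MB TE, 14.1, 25.1 and 13.5 CPM in MB ICM and 659.8 CPM in EB of replicate 4. Every one of those 35 EB cells, at 266 CPM or more, lay above every day 8 cell. The EB cells of replicate 6 nevertheless had only 19.1 CPM and those of replicate 1 had no read, while day 6 Morula cells had 181 CPM in replicate 4 and 57.9 CPM in replicate 6. The level in EB was thus not shared by the EB cells of other libraries, and within replicate 1 no direction could be had. The changes were -4.95 in MB TE (SE 0.68, adjusted p = 0.000745) and -4.57 in MB ICM (SE 0.68, adjusted p = 0.0036), and without replicate 5 the MB ICM change was -4.42 and not called.

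HBG, a globin gene, and BRB, a brain ribonuclease, were also lower in both classes. Here the EB cells of replicate 6 were high as well, while those of replicate 1 had no read of either gene. HBG had 1.51, 0.395 and 0 CPM in MB TE, 0.446, 1.28 and 0 CPM in MB ICM and 136 CPM in EB, with 103 CPM in the EB cells of replicate 6 and 1664 and 447 CPM in Morula cells of replicates 4 and 6. BRB had 25.0, 0.938 and 0 CPM in MB TE, 4.39, 3.12 and 1.54 CPM in MB ICM and 149 CPM in EB, with 47.6 CPM in the EB cells of replicate 6 and 342 and 337 CPM in Morula. Both genes thus stood highest on day 6 and lowest on day 8 in these averages. The fitted changes were -3.61 and -3.60 for HBG (MB TE and MB ICM, SE 0.52, adjusted p = 0.00108 and 0.0036) and -3.37 and -3.64 for BRB (SE 0.54, adjusted p = 0.00342 and 0.0036). These sizes are held down by the 10 CPM added before the log. Without replicate 5 the MB ICM changes were -3.50 and -3.61 and not called. HBG belongs to a family of closely alike globin genes, and its reads may be shared with them.

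SYNE2, which links the nucleus to the cytoskeleton, had 44.6, 39.0 and 23.1 CPM in MB TE, 27.0, 26.9 and 20.0 CPM in MB ICM and 264 CPM in EB, but 28.5 CPM in the EB cells of replicate 6 and no read in those of replicate 1. Its changes were -2.67 and -3.11 (SE 0.45, adjusted p = 0.00437 and 0.0036). The highest EB cells of replicate 4 had 2615 and 2489 CPM, the first of them giving 28.3% of the EB level, while the median was 74.1 CPM. Of those 35 EB cells 12 lay above the highest MB TE cell and 12 above the highest MB ICM cell. LOC112449616 was called because 1 EB cell held all of its reads, and no fold is given for it. It was listed at 0 in all 6 day 8 averages, and its MB ICM call was lost without replicate 2.

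Groups of housekeeping genes had few or no calls. Of 41 tested genes of cytosolic ribosomal proteins none was called in either class, and their median change was 0.14 in MB TE and 0.55 in MB ICM, with 24 and 40 members above 0. At an unadjusted p under 0.05 by limma, 2 of the 41 differed in MB TE and 17 in MB ICM, against 1301 and 918 of all 10785 tested genes. Among 30 tested genes of oxidative phosphorylation none was called (medians 0.13 and 0.29), nor among 20 of glycolysis (0.37 and 0.51), 31 of the proteasome (0.08 and 0.11) or 34 of the cell cycle (-0.47 and 0.09). At an unadjusted p under 0.05 these had 0 and 1, 4 and 5, 0 and 2, and 5 and 3 members in MB TE and MB ICM, in the same order of lists. Since the median of all genes was -0.18 and -0.16, these lists lay 0.32 and 0.71 (ribosomal proteins), 0.31 and 0.45 (oxidative phosphorylation) and 0.55 and 0.67 (glycolysis) above it. No member was called in the lists for the Hippo pathway (23 tested), Nodal, BMP and WNT (24), JAK and STAT (11), interferon response (10), imprinted genes (15), one-carbon metabolism (17) or maternal and early-cleavage transcripts (7). At an unadjusted p under 0.05 by limma these lists had, in that order, 2, 4, 3, 1, 1, 0 and 0 members in MB TE. In MB ICM they had 3, 7, 0, 1, 3, 5 and 0, against 1301 and 918 of all 10785 genes in the 2 classes. The largest shares in MB ICM were 7 of 24 for Nodal, BMP and WNT and 5 of 17 for one-carbon metabolism.

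**Figure D5:**
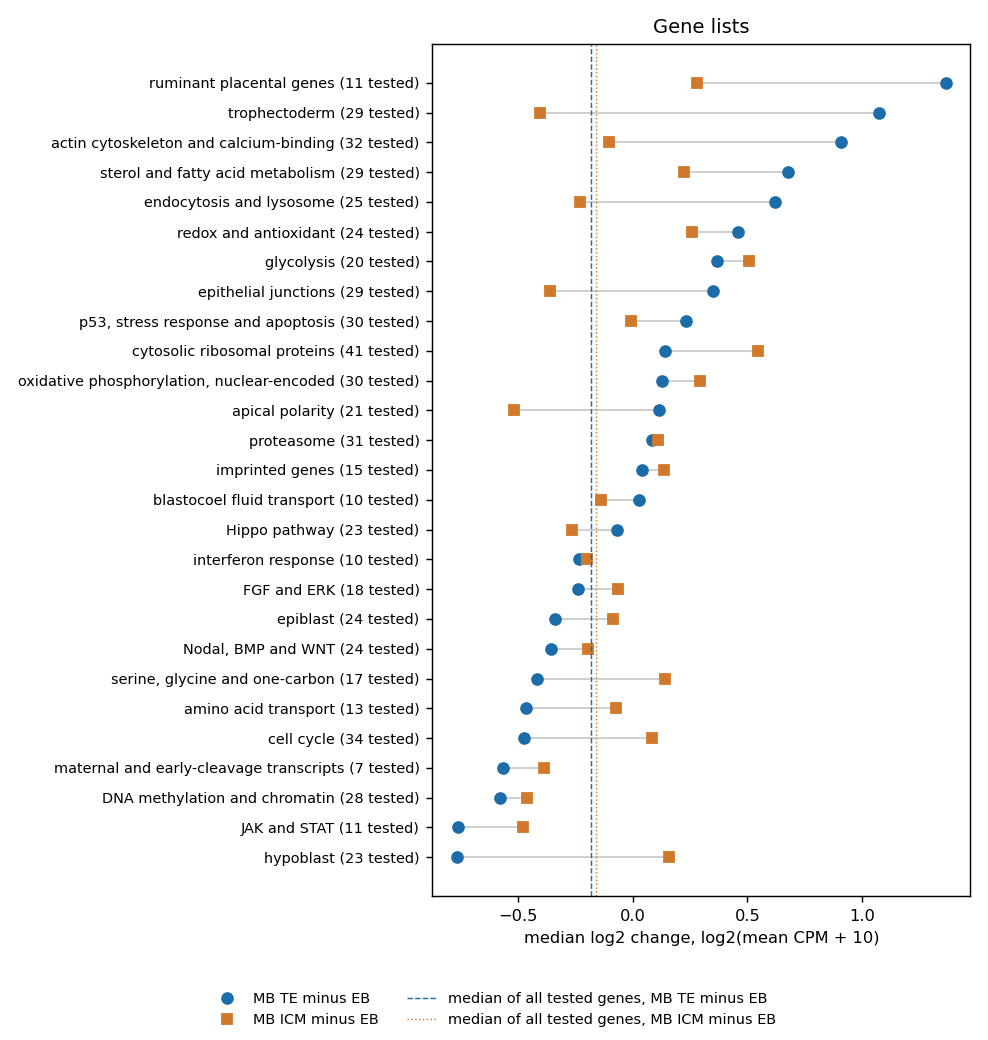
Median log2 change of the tested members of each gene list, MB TE minus EB as circles and MB ICM minus EB as squares, with the medians of all tested genes as dashed and dotted lines. Placental, trophectoderm and actin genes lie farthest to the right for MB TE, at 1.36, 1.07 and 0.91, and hypoblast genes farthest to the left, at -0.76.

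Markers of other cell types were read in all classes. Cumulus and granulosa genes summed to between 584 and 1045 CPM in MB TE, between 88.9 and 237 CPM in MB ICM and to 73.1 CPM in EB, and most of this was PTGS2, which the trophectoderm list also holds. Of the 15 genes 2, 5 and 4 were at 0 in the same classes. Fibroblast genes summed to between 81.3 and 432 CPM in MB TE, between 163 and 913 CPM in MB ICM and to 205 CPM in EB. Sperm and blood genes stayed at or below 65.5 and 61.3 CPM in every class. None but PTGS2 was called, and their part in the results was not tested.

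As a measure of how far libraries differ within a class, Morula cells of replicates 4 and 6 differed by a median of 0.36 on the log2 scale over the tested genes, with a 95th percentile of 1.29. Pairs of MB TE libraries had medians between 0.32 and 0.45, and pairs of MB ICM libraries between 0.32 and 0.49. The pair of replicates 1 and 2 had 0.32 in either class. Higher medians came only from pairs with MB TE of replicate 3 (3 cells) or MB ICM of replicate 5 (5 cells). The median size of the change from EB was 0.42 for MB TE and 0.39 for MB ICM, above the Morula gap and that of replicates 1 and 2. It was below the gaps of the pairs with few cells. A change sets a fitted mean of 3 averages against 1, so it is not the same measure as a gap between 2 averages. The smallest change called was 1.10 in MB TE and 1.71 in MB ICM.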

How the data were processed

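Polyadenylated RNA of single cells was amplified with a barcode per cell and pooled, per the labels' protocols. Tools named without version in the submitters' processing notes are Seurat, featureCounts, HISAT2 and Trim Galore, and the build is ARS-UCD1.2. No source used here gives their settings. The deposited matrix holds 18825 genes and 286 cells in natural log units, as ln(1 + x) with x scaled by the authors to 10000 per cell, and comes with a table of 288 cells with class and day. With the log undone, 100% of the values were whole multiples of the cell's smallest step (tolerance 0.1 reads), which gave its total reads. Values were scaled to CPM and averaged per library and class (at least 3 cells). The 16 averages of 7 classes entered 1 fit with limma 3.58.1 in R 4.3.3 (trend and robust options, statmod 1.5.0), on log2(mean CPM + 10), with library as random block (consensus correlation 0.20, 9 residual degrees of freedom). Tables were read with data.table (1.17.8). Genes with at least 10 CPM in at least 2 averages were tested. P-values were adjusted over all 10785 genes by the Benjamini-Hochberg method, with a threshold of 0.05, and every adjusted p is from limma. The procedure was tested on simulated data. The floor of a group is 3 reads over its total, and covers counting error only.

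The members and the 31 gene lists (773 entries, 740 in the table, 6 of those by an older symbol) were chosen with earlier results of these data known. Genes were named by a rule: up to 8 with the largest change in each sorted set among those with a gene symbol, up to 3 called members of each list, and a set of lineage genes. Unnamed loci in the small sets, PRDX5, SPRED2 and FAM131B were added to account for all of a set or as examples. The tested alternatives are other pseudocounts, filters, cell minimums, scalings, averages, models and left-out replicates.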

Additional observations from a re-analysis of the deposited data

Results flagged for a closer look

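The day 8 classes lay on opposite sides of the EB average of replicate 4 for 4 of the named genes, by at least 1 on the log2 scale each, and the difference between them passed the threshold. MB TE minus MB ICM was 4.24 for KRT8 (adjusted p = 3.28e-09), 3.71 for DAB2 (adjusted p = 1.34e-07), 2.65 for GATA2 (adjusted p = 5.15e-05) and -2.90 for HNF4A (adjusted p = 1.67e-06), all by limma. The classes were made from these cells, so these differences describe them.

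The mean of the 2 EB cells of replicate 1, left out of the fit, exceeded the highest single EB cell of replicate 4 in 12 named genes that had reads in both cells. It was 11446 CPM for KRT8 (highest cell of replicate 4 8557 CPM), 1236 CPM for KRT19 (563 CPM), 2004 CPM for CRIP1 (889 CPM) and 15667 CPM for ACTB (14200 CPM). TAGLN2 had 1597 CPM (1158 CPM), S100A16 1436 CPM (669 CPM), ARPC1B 222 CPM (83.7 CPM) and DNMT3A 1087 CPM (1062 CPM). ATP6V0C had 1749.8 CPM (734 CPM), CTSZ 269 CPM (75.3 CPM), PRDX5 275 CPM (259.8 CPM) and SLC1A1 497 CPM (248 CPM). Most of these were called higher in MB TE than in EB. Only the named genes were searched, and many were named because of such a call. What most of these genes share therefore follows in part from that choice, and no share over all tested genes is given. Whether those cells carry the right day or class was not tested, and the differences rest on 2 cells of 29295 and 37742 reads.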

How the results depend on the processing

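Counts are given for MB TE against EB, MB ICM against EB, both classes, MB TE only and MB ICM only, in that order, where they moved by over 1.5 times from 118, 18, 7, 100 and 10. A pseudocount of 1 gave 7 for MB ICM, 4 for both and 3 for MB ICM only, and one of 50 gave 4 for MB ICM only. No filter gave 85 for MB ICM and 62 for both. At least 5 cells per average gave 64 for MB TE and 55 for MB TE only, and at least 1 cell gave 417, 126, 42, 163 and 48. Fitting only the EB, MB ICM and MB TE averages gave 56, 0, 0, 51 and 0. There 685 genes had an unadjusted p under 0.05 for MB ICM. Median-ratio scaling gave 11 for MB ICM and 4 for MB ICM only, and averaging log2 values over cells 236 for MB TE, 12 for both and 195 for MB TE only. limma-voom on the recovered reads gave 407, 51, 12, 267 and 34. Leaving out replicate 1, 2, 3, 5 or 6 gave between 34 and 174, 3 and 28, 2 and 12, 28 and 129, and 1 and 13. At a minimum of 50 CPM, and with cells of at least 50000 reads only, all 5 counts stayed within 1.5 times. So did the fit with no replicate block, with 115, 15, 6, 97 and 8, and the replicate block moved the sign only of PDGFRA in MB ICM (-0.033 without it).

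With averages of 2 or more cells and a fixed replicate block, chosen after seeing the data, 1915, 2352, 1398 and 200 genes were called in MB TE, MB ICM, both and MB ICM only. By construction that fit rests on the 2 shallow EB cells of replicate 1, and the medians of all genes were 0.67 and 0.74. It kept 40 of the 118 MB TE calls and 9 of the 18 MB ICM calls, and 77 of 116 and 10 of 17 tested genes kept their sign. Averages of at least 1 cell turned HNF4A (0.11) and AKAP12 (0.062) in MB TE and SOX2 (0.94) and AGPAT5 (0.58) in MB ICM to the other sign. PDGFRA in MB ICM was also negative with the 3 classes alone (-0.055). Leaving out a replicate gave changes in MB ICM between -0.18 and 0.19 for PDGFRA and between -0.0035 and 0.17 for OTX2. Apart from the alternatives that include the EB cells of replicates 1 and 6, all called genes that were tested kept their direction. The causes were not tested. Leaving out replicate 4 gives no value, since it removes the EB average, and the planned quasi-likelihood count test was not run beside limma-voom. With 1 EB average and 35 cells, the smallest change called was 1.10 in MB TE and 1.71 in MB ICM, at a median SE of 0.50. Larger changes also went uncalled, such as -1.84 for CDX2 and 1.76 for HNF4A in MB ICM. A gene that was not called is thus not shown to be unchanged.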
